A study of Drosophila melanogaster with 2 samples.

Results

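The ranked peaks on chromosome 4 are the candidate binding sites of the CG10959-eGFP fusion protein on the smallest chromosome of Drosophila melanogaster. They were taken from the longer of the pooled ranked peak lists, by chromosome name alone, and number 42 of 148346 ranked peaks. The large arms X, 2L, 2R, 3L and 3R together held 144457, and they serve as the comparison. Chromatin came from whole embryos aged 0 to 8 h of a transgenic strain in which CG10959 is fused to eGFP, it was sonicated to fragments of 200 to 800 bp, and the fusion was precipitated with an antibody against GFP. The labels give 2 biological replicates of 1 group, and the embryos of both carry the transgene. Control libraries are named in the labels and were not analysed here. A set of genome regions named in the notes that came with the data was not analysed either. No label says which cells of the embryo express the fusion, and peak lists hold no expression values against which the tissue could be checked. A ranked list holds every candidate peak that was ordered by strength, most of them weak, and a thresholded list holds those that also ranked alike between sets of reads.

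Chromosome 4 is small and rich in repeats, and much of it carries marks of heterochromatin, including the protein HP1. Its genes are nevertheless transcribed, and a chromosome-specific protein, POF, binds them. The distal end of the chromosome holds HeT-A and TART, retrotransposons that maintain telomeres in Drosophila. The protein-coding genes include transcription factors, synaptic proteins and genes used in every cell.

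The sequences at the summits of the peaks that recur in the results are shown here, so that genic sites and telomeric elements can be compared by eye. They are the + strand of dm6, 5′ to 3′, read from the RefSeq copy of the assembly, and capitals mark the 10 words of 8 bases, in either orientation, that were most over-represented at thresholded peaks of the large arms. The first, the strongest member, lies in an intron of ey, within an annotated INE-1 element, and is printed at 300 bp. The others are printed from 50 bp before the summit to 50 bp after it.
ey intron, chr4:709738-710037: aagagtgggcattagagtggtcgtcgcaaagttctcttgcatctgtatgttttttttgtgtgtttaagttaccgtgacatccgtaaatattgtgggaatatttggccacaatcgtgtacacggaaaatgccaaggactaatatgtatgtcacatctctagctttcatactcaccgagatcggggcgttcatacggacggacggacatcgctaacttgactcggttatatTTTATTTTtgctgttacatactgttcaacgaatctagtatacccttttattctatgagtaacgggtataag
PlexA coding exon, chr4:1023076-1023176: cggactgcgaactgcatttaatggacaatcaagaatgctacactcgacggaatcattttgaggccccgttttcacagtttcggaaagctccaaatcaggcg
zfh2 intron, chr4:519806-519906: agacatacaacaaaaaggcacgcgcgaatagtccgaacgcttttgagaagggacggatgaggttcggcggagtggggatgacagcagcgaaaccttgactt
bt coding exon, chr4:759945-760045: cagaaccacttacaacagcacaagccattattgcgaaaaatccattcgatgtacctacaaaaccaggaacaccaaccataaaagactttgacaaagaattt
JYalpha coding exon, chr4:2097-2197: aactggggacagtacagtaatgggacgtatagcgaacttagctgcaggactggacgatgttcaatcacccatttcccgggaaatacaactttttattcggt
HeT-A, first cluster, chr4:1280659-1280759: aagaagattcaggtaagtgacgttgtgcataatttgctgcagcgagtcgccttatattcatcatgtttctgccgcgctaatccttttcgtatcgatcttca
HeT-A, second cluster, chr4:1318371-1318471: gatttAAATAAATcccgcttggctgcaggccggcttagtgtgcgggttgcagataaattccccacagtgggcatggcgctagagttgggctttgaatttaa
TART-A, chr4:1333047-1333147: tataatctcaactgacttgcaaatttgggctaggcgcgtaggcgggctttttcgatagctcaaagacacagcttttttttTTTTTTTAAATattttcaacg
Replicate 2 only, near lncRNA:CR43437, chr4:424769-424869: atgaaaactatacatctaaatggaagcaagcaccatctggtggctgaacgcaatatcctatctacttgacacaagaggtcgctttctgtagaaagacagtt
Replicate 2 only, PlexA promoter, chr4:1027217-1027317: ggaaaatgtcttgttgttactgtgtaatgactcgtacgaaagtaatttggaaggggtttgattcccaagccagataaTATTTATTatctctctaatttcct

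Chromosome 4 was nearly bare of ranked peaks. It carried 31.2 ranked peaks per Mb, against 1090 per Mb on the large arms, a 35.0-fold lower density. At the density of the large arms its 1348131 bp would have held 1469. Each replicate's own ranked list showed the same sparseness: 32 peaks in replicate 1, or 23.7 per Mb against 974 per Mb on the large arms, and 72 in replicate 2, or 53.4 against 1009 per Mb. The large arms lay close together, between 1027 and 1164 peaks per Mb in the pooled list. Relative to the large arms, the density on chromosome 4 was 0.0286 in the pooled list and 0.0177 there without the 16 members of the first 32203 bp. It was 0.0244 in replicate 1 and 0.0529 in replicate 2. The replicates differed more from each other on chromosome 4 than on whole arms, and both stood far below every arm. With 2 replicates an exact test over samples cannot go below p = 0.5, so the comparisons are descriptions, and peaks were not treated as replicates.

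**Figure D1:**
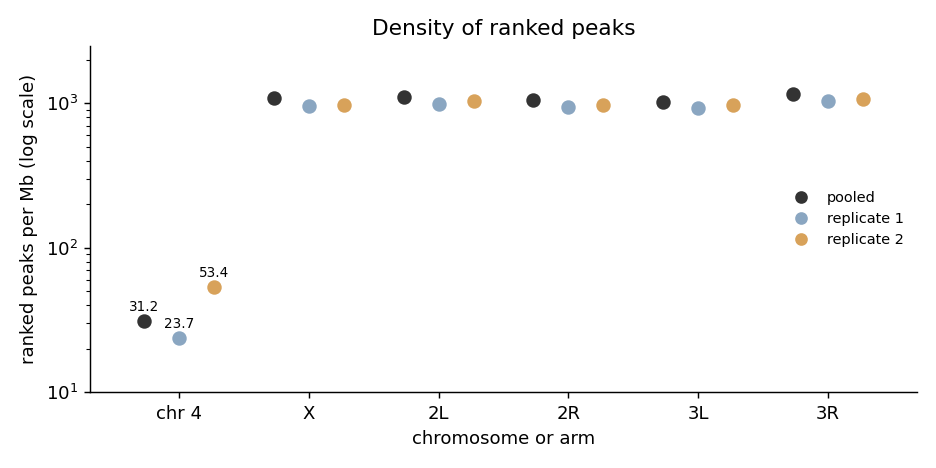
Ranked peaks per Mb (log scale) on chromosome 4 and on each large arm, with 1 point for each of the pooled, replicate 1 and replicate 2 lists. Chromosome 4 sits between 23.7 and 53.4 per Mb in the 3 lists, and the arms lie between 936 and 1164.

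None of the windows compared on the large arms was as empty. Among 95 complete, non-overlapping windows of the length of chromosome 4, the lowest number of ranked summits was 472, the median 1596 and the highest 1953, set against 42 on chromosome 4. The emptiest windows held 538 summits in replicate 1 and 298 in replicate 2, against 32 and 72 on chromosome 4. Replicates also differed within arms: the first window of 2R held 563 in replicate 1 and 298 in replicate 2. The 15 windows in which at least as many 31-mers occurred more than once in the genome as on chromosome 4 (15.8%) held 472 to 1305 summits, with a median of 638. The part of repeats, of the control libraries or of the set of regions in the low density was not tested.

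The members were gathered in a few places. Of the 134 complete bins of 10 kb on chromosome 4, 13 held a summit (9.70%), against 12123 of 13251 bins on the large arms (91.5%). An occupied bin held 3.23 summits on average on chromosome 4, against 11.9 on the large arms, so occupied bins were also less crowded. In replicate 1 there were 14 occupied bins (10.4%, against 92.7% on the large arms), and in replicate 2 there were 17 (12.7%, against 91.6%). The median distance between neighbouring summits was 1095 bp on chromosome 4, against 632 bp on the large arms, and 25 of 41 gaps were 2000 bp or shorter (61.0%), against 95.6% of gaps on the large arms.

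**Figure D2:**
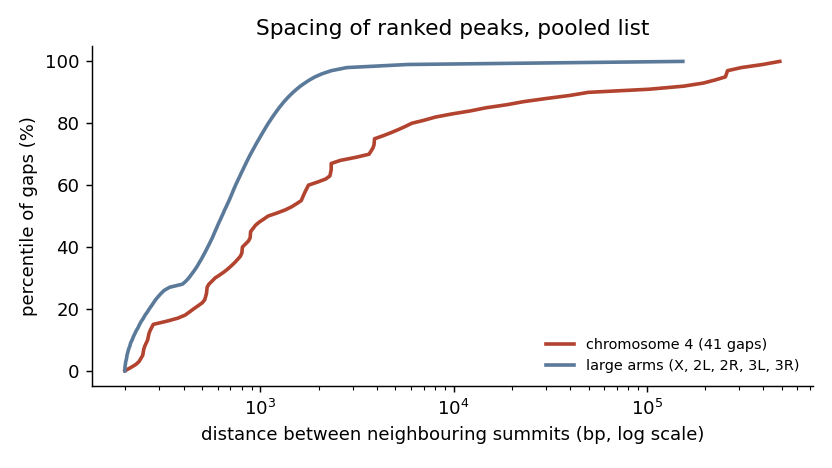
Percentiles of the distance between neighbouring ranked summits (bp, log scale) in the pooled list, for chromosome 4 and the large arms. The curve of chromosome 4 lies to the right of the other, with a median of 1095 bp against 632 bp, and reaches 487306 bp, against 153516 bp on the large arms.

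Long empty stretches made up most of the chromosome. The longest gap ran 487.3 kb, between summits at positions 32024 and 519330, against 153.5 kb for the longest gap on the large arms. It held 31 whole protein-coding genes, among them ci, the transcription factor of the Hedgehog pathway, PlexB, a semaphorin receptor, and RpS3A, a ribosomal protein. It contained no unknown bases, and 10.7% of its 31-mers were repeated in the genome, below the 15.8% of the whole chromosome. The next longest gaps spanned 263.1, 255.1 and 181.4 kb, and the one of 255.1 kb includes 17000 unknown bases. The 5 longest gaps covered 91.7% of the chromosome and held 75 whole protein-coding genes. In replicate 1 the longest gap lay over the same stretch, between summits at 31932 and 523297, and ran 491.4 kb, against 151.7 kb on the large arms. In replicate 2 it ran 406.2 kb, between summits at 18608 and 424819, against 220.2 kb on the large arms, and further ranked peaks of replicate 2 lay between 424819 and the start of the zfh2 cluster of the pooled list.

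Ranked peaks of all 4 ranked lists (the pooled list, a shorter pooled list and the list of each replicate) were joined across gaps of up to 10 kb between peaks. Chromosome 4 then had 13 loci, with 7.44% of its length. The pooled list used 8 of them, replicate 1 used 9 and replicate 2 used 11, and 6 were in all 4 lists. Those in all 4 lists were the proximal end of the assembly with JYalpha, the genes zfh2, ey and bt, and both HeT-A clusters. The other loci each missed at least 1 list.

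**Figure D3:**
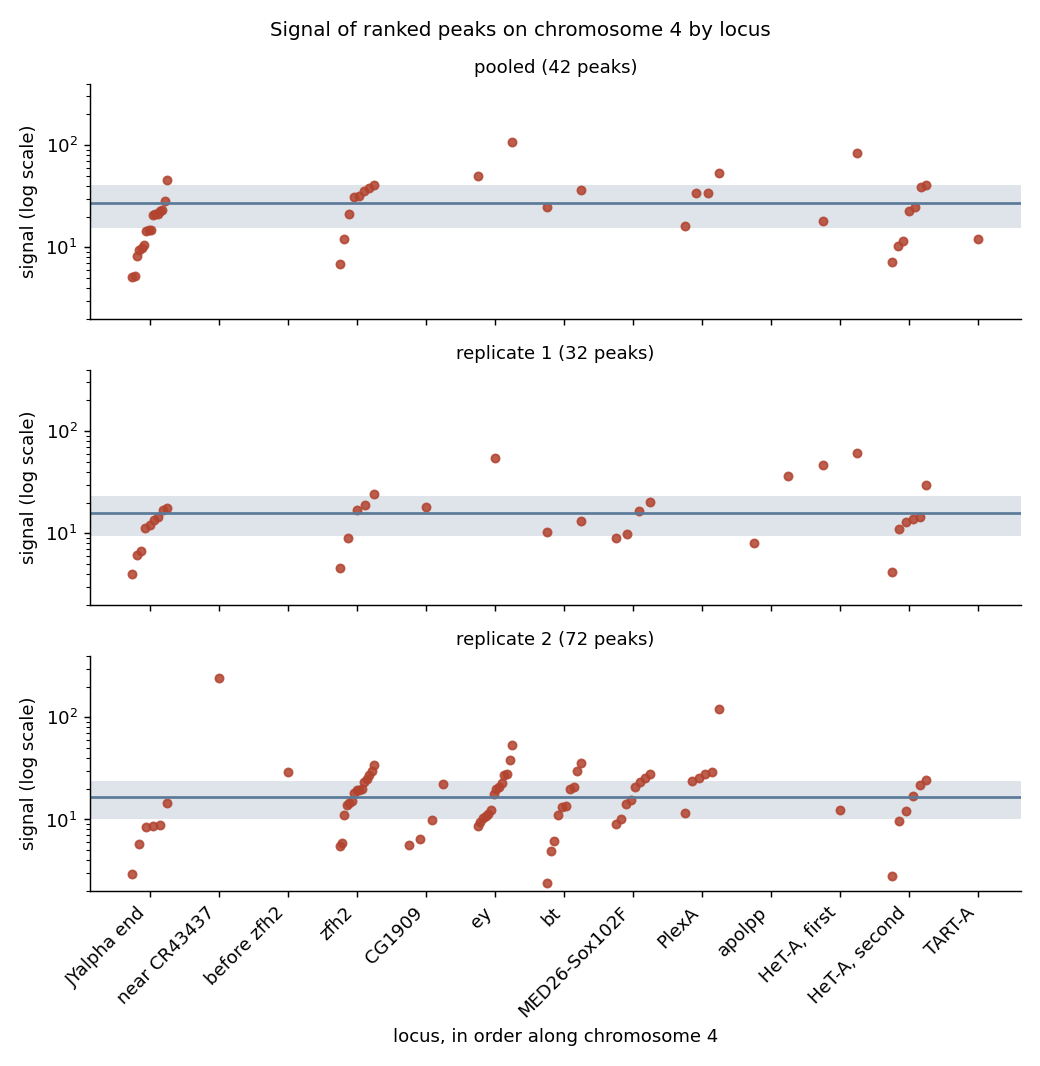
Signal of each ranked chromosome 4 peak (log scale) at the 13 loci, in order along the chromosome, in the pooled list and in each replicate; the line and band are the median and quartiles of the large arms in the same list. Peaks at ey reach 108.0 (pooled), 54.7 (replicate 1) and 53.5 (replicate 2), and the highest point of replicate 2, 243.6, has no counterpart in the other panels.

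Members were of about the same strength as other ranked peaks, or a little weaker. The signal, the strength the authors deposited for a peak, had a median of 22.1 on chromosome 4 (lowest 5.18, highest 108.0), against 27.05 on the large arms, a log2 difference of -0.29. The medians of single arms ran from 23.7 to 28.2. The log2 difference was -0.22 in replicate 1 (median 13.6, against 15.8 on the large arms) and -0.01 in replicate 2 (16.3 against 16.4). The direction in the pooled list rested on the first locus: without its 16 peaks the log2 difference was 0.20, with chromosome 4 higher. Of the 42 members, 16 lay above the median of the large arms (38.1%).

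Few members passed the authors' threshold on the score, and few ranked peaks of the large arms did. The score follows the IDR, the irreproducible discovery rate, a measure of how alike peaks rank between sets of reads. A score of 830, an IDR of 0.01, is the lowest in the thresholded lists. It was reached by 1 of 42 members (2.38%, exact 95% interval 0.0603 to 12.6%), against 2.42% of the ranked peaks on the large arms. In replicate 1 it was reached by 2 of 32 peaks (6.25%, against 1.63% on the large arms), and in replicate 2 by 2 of 72 (2.78%, against 1.79%). The share was close to that of the arms in the pooled list and above it in each replicate. On chromosome 4 it rests on 1 or 2 peaks in each list. The lowest score in the list, 38, was given to 24 members (57.1%), against 42.6% of ranked peaks on the large arms.

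The strongest member lay in ey, the Pax6 gene that directs eye development. The peak at chr4:709708-710067 had a signal of 108.0 and a score of 1000, ranked 2161 in the list (top 1.46%), and was the only member in the pooled thresholded list and in the conservative list. It had a signal of 54.7 and a score of 949 in replicate 1, and 53.5 with a score of 772 in replicate 2, so it was strong in both replicates. The summit was intronic, 2459 bp from the nearest annotated ey start, and lay in an INE-1 element, an old and abundant transposon family of which chromosome 4 has 344 annotated copies; no 31-mer of its summit window recurred in the genome. A second ey peak, at chr4:709041-709400, had a signal of 50.2 and a score of 260. It appeared in replicate 2 with a signal of 37.9 and not in replicate 1. Replicate 2 had 14 ranked peaks in the body of ey, against 1 in replicate 1 and 2 in the pooled list.

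zfh2, which encodes a zinc-finger homeodomain transcription factor active in the nervous system and the wing, was the gene with most members. Its body held 8 members with signals from 6.88 to 40.4 and a median of 31.1, and the gene held 5 peaks in replicate 1 (4.55 to 24.4) and 15 in replicate 2 (5.44 to 34.5). The 8 members lay at least 17520 bp from the nearest zfh2 start, in introns or coding exons of a gene of 39065 bp, and the nearest replicate 2 peak in the gene lay 14200 bp from it. The strongest, at chr4:519676-520035, had a signal of 40.4 in the pooled list and 29.8 in replicate 2, and no partner in replicate 1. The peak at chr4:527600-527959 was found in both, with a signal of 37.7 pooled, 18.9 in replicate 1 and 27.04 in replicate 2.

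PlexA, a semaphorin receptor used in axon guidance, held 4 members, all absent from replicate 1 and from the shorter pooled list. The strongest, in a coding exon at chr4:1022946-1023305, had a signal of 53.8 and a score of 95, and a signal of 28.0 in replicate 2. The others had signals of 34.2, 33.8 and 16.3 and lay in an intron, with summits in annotated HB, INE-1 or Tc1 elements. bt, which encodes projectin, a giant protein of insect muscle, held 2 overlapping members in a coding exon, with signals of 36.1 and 24.8. Both were found in both replicates, at 10.3 and 13.3 in replicate 1 and at a single peak of 20.8 in replicate 2, which had 10 ranked peaks in the gene.

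The first locus, from position 299 to 32203, held 16 members, the most of any locus, and a median signal of 14.9. It begins at JYalpha, an alpha subunit of the sodium-potassium ATPase that is needed for sperm function, and continues through pseudogenes and elements of the McClintock, 1360 and INE-1 families. JYalpha carried 4 members in coding exons, of which the strongest, at chr4:1967-2326 with a signal of 45.5, had no partner in either replicate. The only promoter member, at chr4:340-699, lay 359 bp from the JYalpha start with a signal of 14.9, and at 14.4 in replicate 1 and 8.75 in replicate 2.

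At the other end, 10 members lay in telomeric retrotransposons, 9 in HeT-A and 1 in TART-A. The telomeric elements of chromosome 4 number 22, span positions 1272114 to 1345937 and total 71819 bp, and the members in them had a median signal of 20.5. That is 139 ranked summits per Mb of such elements, above the 31.2 per Mb of the whole of chromosome 4 and below the 1090 per Mb of the large arms. On X, the large arm with most telomeric sequence in the assembly, 13 ranked summits lay in 19968 bp of such elements, or 651 per Mb, with a median signal of 21.8. On 3L, 1077 bp of such elements held 1, with a signal of 52.2. On 2R, 6138 bp of such elements held none, nor did 31 bp on 3R. The strongest HeT-A peak, at chr4:1280529-1280888, had a signal of 84.4 (top 2.28% of the list), a score of 80, and 5.63% recurring 31-mers at its summit. In replicate 1 it had a signal of 61.1 and a score of 884, past the threshold, and no peak of replicate 2 overlapped it. It is absent from the thresholded list of replicate 1, as were 58 of 2100 such peaks on the large arms (2.76%). A peak at chr4:1318241-1318600, in the second cluster, had a signal of 40.7 pooled, 29.5 in replicate 1 and 21.8 in replicate 2. The TART-A peak, at chr4:1332917-1333276, had a signal of 11.9 and no partner in either replicate.

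In the longer pooled list, score and signal came apart most at the HeT-A peak. Of 792 large-arm peaks with a signal within 5% of 84.4, the median score was 778, with quartiles of 604 and 895, and 1.77% scored 80 or less. The PlexA peak of signal 53.8 scored 95, against a median of 234 in large-arm peaks of like signal. The main ey peak was at the median of its like peaks, 1000. Among the 10 strongest members, 7 scored below the median of large-arm peaks of like signal. Among all 42, 10 scored below that median, 23 at it and 9 above it. For members with a signal of 24.8 or less that median was 38, the lowest score of the list. None of these could score below it, so the count says nothing of low scores among weaker members. The scores depended on the list and moved both ways. In the shorter pooled list, at the same signals, the HeT-A peak scored 379. There the peak at chr4:1318241-1318600 scored 232, against 80, and the second ey peak scored 75, against 260. Large-arm peaks of like signal were not compared in that list.

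**Figure D4:**
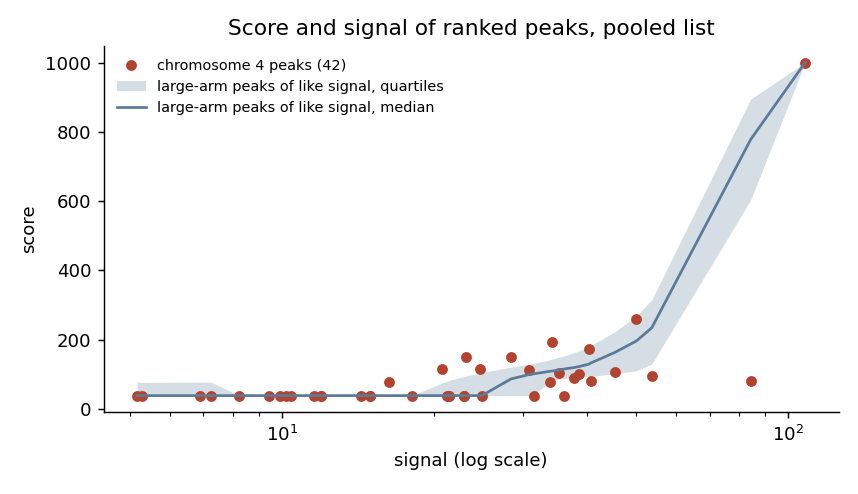
Score against signal (log scale) for the 42 chromosome 4 members in the longer pooled list. The line and band give the median and quartiles of the score of large-arm peaks with a signal within 5%. The point at a signal of 84.4 and a score of 80, a HeT-A peak, lies far below the band, and the ey peak at 108.0 lies on it.

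Some ranked peaks of chromosome 4 were seen in 1 replicate only. Replicate 2 had the 2 highest ranked of these. The peak at chr4:424750-424926, 1248 bp from lncRNA:CR43437 in intergenic sequence, had a signal of 243.6, a score of 1000 and rank 167 in its list, and was 177 bp wide, against 310 bp for most peaks of that list. The peak at chr4:1027112-1027421 had a signal of 120.6, a score of 1000 and rank 655, and lay 166 bp upstream of the PlexA start. Both are in the thresholded list of replicate 2, and neither overlaps a pooled ranked peak; on the large arms 35 of 2326 thresholded peaks of replicate 2 overlapped none (1.505%). apolpp, which encodes the lipophorin precursor, had 2 ranked peaks in replicate 1, at 36.4 and 8.04, and none elsewhere. Another locus had peaks in both replicates but no member in the longer pooled list. It runs from between MED26, a Mediator subunit, and Sox102F, a SoxD transcription factor, into Sox102F. It had 6 peaks in the shorter pooled list, 4 in replicate 1 and 8 in replicate 2. Of the 8 in replicate 2, 3 lay in coding exons of Sox102F, and the others of this locus were intergenic.

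Members had partners in both replicates less often than ranked peaks on the large arms. Both replicates' ranked lists overlapped 11 members (26.2%), against 73.0% of ranked peaks on the large arms. Replicate 1 alone overlapped 7 (16.7%, against 11.4%), replicate 2 alone 16 (38.1%, against 13.1%), and neither 8 (19.0%, against 2.37%). Members in both replicates had a median signal of 31.5, and those in neither 13.1, against 31.6 and 10.8 on the large arms. Neighbouring members can share a partner: the 18 members found in replicate 1 matched 16 peaks there, and the 27 found in replicate 2 matched 23. Seen from the replicates, 50% of the ranked chromosome 4 peaks of replicate 1 had no partner in replicate 2, against 22.0% on the large arms. Of those of replicate 2, 75% had none in replicate 1, against 24.9%. Where peaks are dense, a 1 bp overlap is met more often by position alone. The replicate lists held 974 and 1009 peaks per Mb on the large arms, against 23.7 and 53.4 on chromosome 4. The shares with and without partners therefore depend on density too, and its part in them was not tested. Over 16 pairs of overlapping replicate peaks Spearman's rho of the signals was 0.52, against 0.29 over 100738 pairs on the large arms. With summits within 100 bp it was 0.390 over 13 pairs, against 0.392 over 63474 pairs on the large arms, so no difference in rho was left. Pearson's correlation of the log2 signals of those pairs was 0.56, against 0.46 on the large arms. Over the overlapping pairs it was 0.40, against 0.35. The pairs share 2 libraries, and no p is given. Of the members, 28 were also in the shorter pooled list (66.7%, against 93.6% on the large arms).

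Members lay mostly outside promoters. Of 42 summits, 21 were intergenic (50%, with 20.01% of the bases of chromosome 4 in that class), 10 in introns (23.8%, with 42.1% of bases), 10 in coding exons (23.8%, with 18.8% of bases) and 1 at a promoter, within 500 bp of a transcription start (2.38%, with 10.2% of bases). On the large arms 23.7% of summits were intergenic, 37.0% intronic, 20.9% in coding exons and 14.3% at promoters. The median signal was 34.0 for intronic members, 29.6 in coding exons, 14.3 between genes and 14.9 for the promoter peak. The members inside genes had the higher medians.

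Nearly as many members lay in annotated transposable elements as outside them. There were 20 in elements (47.6%, with 24.8% of the bases of chromosome 4 in elements), against 1.24% of ranked peaks on the large arms (5.74% of bases). HeT-A held 9, McClintock 3, INE-1 3, 1360 2, Tc1 2, HB 1 and TART-A 1, counting a summit under each element that holds it. On average 38.1% of the 31-mers within 50 bp of a member's summit recurred in the genome, against 2.89% on the large arms. There were 20 members with no recurring 31-mer (47.6%, against 94.5% on the large arms), and these had a median signal of 31.1, against 15.6 for members with some. In replicate 2 the mean share of recurring 31-mers was 15.7%, against 37.1% in replicate 1. The part of mapping in repeats in these values was not tested.

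**Figure D5:**
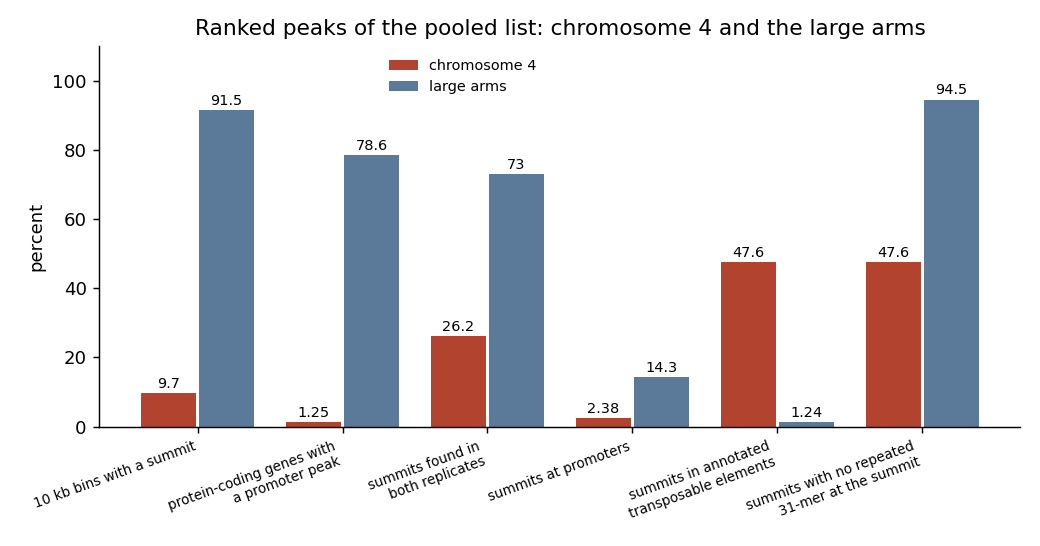
Shares in the pooled list on chromosome 4 and on the large arms: bins with a summit, genes with a promoter peak, summits found in both replicates, at promoters, in annotated transposable elements, and with no repeated 31-mer. Chromosome 4 is lower in all but the share in transposable elements, 47.6% against 1.24%.

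Almost no gene of chromosome 4 had a ranked peak at its promoter. Of 80 protein-coding genes 1 did, JYalpha (1.25%, exact 95% interval 0.0316 to 6.77%), against 10893 of 13865 on the large arms (78.6%). In replicate 1 it was again 1 gene, JYalpha (1.25%, against 72.2%), and in replicate 2 it was 3, JYalpha, ey and PlexA (3.75%, against 79.9%). A ranked summit anywhere in the gene was found in 5 genes (6.25%, against 86.3%): JYalpha, zfh2, ey, bt and PlexA. Long genes showed the same contrast. Of the 20 chromosome 4 genes of at least 17421 bp, 3 held a summit (15%), against 1157 of 1169 genes of that length on the large arms (98.97%). PlexA, with 4 members, fell just below this length at 17207 bp.

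The same held for each group of chromosome 4 genes. Among 17 transcription factors and cofactors none had a promoter peak in the pooled list or in replicate 1, and 1, ey, did in replicate 2; summits within the gene were found for zfh2 and ey, and in replicate 2 also for Sox102F. ci was without a peak. Among 14 neuronal and synaptic genes, PlexA had summits in the pooled list and replicate 2, and unc-13 and Cadps, both needed for the release of synaptic vesicles, had none. Neither the 9 signalling genes, among them the activin ligand Actbeta and its relative myo, nor the 10 genes used in every cell, among them RpS3A and the ATP synthase subunit ATPsynbeta, had a summit at a promoter or in the gene in any list. Among 5 structural and secreted genes, bt had summits in every list and apolpp in replicate 1, and Zyx, which encodes the focal adhesion protein zyxin, had none.

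GC content at the summits was lower on chromosome 4, as it was for the chromosome as a whole. The median GC content of the sequence within 50 bp of the summit was 40.6% on chromosome 4 and 47.5% on the large arms, each above the 35.2% and 42.2% of all bases. Bases soft-masked in the genome sequence made up 18.9% of the windows on chromosome 4, against 12.2% on the large arms, and 27.8% and 20.03% of all bases. Soft-masking left out some recurring sequence. The HeT-A member at chr4:1317728-1318087 had 0% soft-masked bases and 73.2% recurring 31-mers. The soft-masked share is therefore not a measure of all repeats.

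Short motifs were searched on both strands of the same windows. CGATA was in 5 of 42 windows (11.9%, against 10.3% on the large arms and 23.6% of windows of that length at transcription starts). GAGAG was in 8 (19.0%, against 12.6% and 12.7%) and CACACA in 1 (2.38%, against 9.48% and 8.47%). TATCGATA, which contains CGATA, and CAGGTAG were in none, which allows a share of up to 7.14%, against 0.226% and 0.624% on the large arms and 4.48% and 0.483% at transcription starts. The 10 AT-rich 8-mers marked in capitals above were chosen on the large arms, where 29.5% of thresholded peaks and 9.62% of other ranked peaks held at least 1. On chromosome 4, 9 of 42 windows did (21.4%). AAATAAAT, in 5 members, was the commonest there, and those 5 lay in bt and in HeT-A elements of both clusters.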

How the data were processed

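Peak lists on dm6 were used as deposited, as ranked and IDR thresholded lists for each of 2 replicates and for the pooled replicates. The software that aligned reads and called peaks is not given in the sources used here. No read counts were used, so depth is unknown, and intervals cover counting error only. The authors deposited with each peak a signal whose scale no label states, so it was compared only within a list. The authors' deposited score equalled the deposited −log10 of the IDR, rescaled, to within 1 unit. In the pooled lists, 16 columns hold values of single replicates that the labels do not assign, and these were left out.

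The members, gene lists and motifs were chosen with earlier results of these data known. Named genes were those nearest the 15 strongest members, those at peaks at or above the score threshold in any ranked list or in a thresholded list, and members of the gene lists with and without promoter peaks. Other genes were named after their values were seen. Summits were placed on the Ensembl annotation of dm6, and each took the first class holding it, with promoters first (500 bp from a start, transposable elements and pseudogenes left out), then exons by kind, introns and intergenic sequence. Peaks of 2 lists were matched by an overlap of at least 1 bp. The joining of loci, the 10 kb bins, the empty windows, the 31-mers, the 8-mers, the transposable elements and the scores at like signal were added after the data were seen. No tests were made over peaks. The measures were tested on simulated data, with a seed of 1. Scripts ran on Python 3.11.15 with scipy 1.17.1, numpy 2.4.6, matplotlib 3.10.9 and pandas 2.3.3.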

Additional observations from a re-analysis of the deposited data

How the results depend on the processing

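From the list of 1 replicate alone, the density on chromosome 4 relative to the large arms was 0.0244 to 0.0529, the log2 difference in median signal -0.22 to -0.0083, the share past the score threshold 2.78 to 6.25%, the share at promoters 3.13 to 6.94%, the share found in the other replicate 25 to 50%, the genes with a promoter peak 1.25 to 3.75%, the median GC content 43.6 to 44.6%, the soft-masked bases 16.1 to 23.8% and the motif matches 30.6 to 43.8%. The log2 signal difference between promoter and other peaks of chromosome 4, -0.62 in the pooled list with 1 promoter peak, was -0.48 to 0.095, so it turned in replicate 1. The shorter pooled list gave a GC content of 42.6% and 25.7% soft-masked bases. The log2 difference in median signal was -0.54 with overlapping peaks merged, -0.0091 in peaks found in both replicates, -0.10 against X alone and, as an alternative added after the data were seen, 0.20 without the first locus. GC content was 41.5% in windows reaching 100 bp on each side, and Spearman's rho was 0.39 with summits within 100 bp, on chromosome 4 as on the large arms. The causes were not tested. Of the alternatives run, 47 values moved by less than the spread between replicates, 16 by more, and 2 turned. These counts include the values of each replicate alone, which themselves set that spread. The 16 also include Spearman's rho, which has no spread between replicates. No promoter peak remained within 200 bp of a start, so that signal difference was not run. No paired analysis was possible because there is 1 group. With 42 members, shares of a few peaks are imprecise.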
